A study of Mus musculus with 18 samples.

Results

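Genes of macrophages, other myeloid cells and neutrophils were read, 41 in number, in CD4 T cells purified from mouse spleen with magnetic beads. They were 41 of 18193 genes measured on Affymetrix arrays, and none of the listed genes was missing. Of these, 12 are known from red pulp macrophages, 25 from myeloid cells in general and 4 from neutrophils. Each gene was read from its brightest probe set with a single gene symbol, the one with the highest mean over 18 arrays. Levels are log2 of the deposited intensity plus 16 after quantile normalization, so a step of 1 is a doubling, and levels of different genes are not compared.

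The cells came from C57BL/6 mice aged 9 to 15 weeks that were wild type (WT) or carried a Gli2A or a Gli2R transgene (Tg), the names of activator and repressor forms of the Hedgehog pathway transcription factor Gli2. Resting cells were taken straight after purification. Stimulated cells had 6 h with antibodies against CD3 and CD28, so culture and antibody effects cannot be told apart here. Each of the 6 groups had 3 arrays. The labels name neither the promoter that drives the transgenes nor whether replicates came from separate mice, and p-values therefore measure the spread between these samples.

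The spleen's red pulp holds resident macrophages that clear aged red cells, break down their heme and return the iron to the blood. Their identity depends on the transcription factor Spic and, like that of other myeloid cells, on Spi1 (PU.1). These macrophages also need growth signals through Csf1r. Neutrophils carry S100 proteins and granule proteins. None of these cells is a T cell, and in bulk RNA fewer cells of a type and less RNA per cell cannot be told apart.

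Promoter sequence is shown for the members with a PU.1 core, because PU.1 is itself a member and a master regulator of myeloid genes. RefSeq windows of 250 bases before to 50 after the transcription start (build GRCm38.p6) were found for 30 of the 41 genes. The motif searched was GAGGAAGT on both strands. It lay in the windows of 4 of these 30 genes (13.3%) and in 997 of 27025 genes with a window (3.69%). The 4 are C1qc, a chain of complement C1q (chr4:136892865-136893164, minus strand), Adgre4, an adhesion receptor of macrophages (chr17:55749734-55750033, plus strand), Ctss, the lysosomal protease cathepsin S (chr3:95526536-95526835, plus strand), and S100a8, a calcium-binding neutrophil protein (chr3:90668821-90669120, plus strand). Capitals mark the match, which reads as its reverse complement in each of the 4.
C1qc: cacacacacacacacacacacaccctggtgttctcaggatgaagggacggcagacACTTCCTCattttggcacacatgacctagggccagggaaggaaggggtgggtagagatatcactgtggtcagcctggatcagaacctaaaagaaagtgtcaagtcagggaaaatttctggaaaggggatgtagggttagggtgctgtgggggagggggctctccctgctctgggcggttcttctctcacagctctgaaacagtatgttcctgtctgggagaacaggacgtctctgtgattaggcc
Adgre4: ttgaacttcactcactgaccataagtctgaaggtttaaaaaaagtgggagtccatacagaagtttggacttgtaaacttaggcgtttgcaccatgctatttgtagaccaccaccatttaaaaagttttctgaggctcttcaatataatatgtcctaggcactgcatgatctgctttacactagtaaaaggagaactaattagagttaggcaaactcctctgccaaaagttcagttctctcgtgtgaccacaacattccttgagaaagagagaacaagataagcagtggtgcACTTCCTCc
Ctss: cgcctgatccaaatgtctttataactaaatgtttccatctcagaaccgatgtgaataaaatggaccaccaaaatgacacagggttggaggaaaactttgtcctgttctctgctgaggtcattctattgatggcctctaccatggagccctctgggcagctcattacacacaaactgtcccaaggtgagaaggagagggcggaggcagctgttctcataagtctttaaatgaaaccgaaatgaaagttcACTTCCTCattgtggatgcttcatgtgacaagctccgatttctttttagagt
S100a8: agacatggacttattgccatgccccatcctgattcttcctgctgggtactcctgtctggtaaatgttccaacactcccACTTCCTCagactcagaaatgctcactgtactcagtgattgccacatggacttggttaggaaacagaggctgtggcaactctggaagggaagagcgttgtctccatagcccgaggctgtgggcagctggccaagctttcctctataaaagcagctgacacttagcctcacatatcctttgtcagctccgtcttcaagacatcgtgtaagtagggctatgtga

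Counted from the transcription start, the match began at -195 in C1qc, -172 in S100a8, -2 in Ctss and 42 in Adgre4. These genes include 3 with log2 falls over 5 after stimulation in WT cells and 1, Ctss, with a fall under 1. A core of C/EBP factors, TTNCNNAA on both strands, lay in 16 of the 30 windowed genes (53.3%) and in 44.1% of all genes. The antioxidant response core TGACNNNGC, also searched on both strands, lay in 5 (16.7%) against 14.0% of all genes, in C1qb, Cebpb, Cfp, Itgax and Lyz2. A match describes the letters of the window and is not a binding site.

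Across the series, array median intensities lay between 55.5 and 76.3, and precision is limited by how many arrays there are. T cell markers were high in every resting array, with list means of 12.70 to 13.42, as the label CD4 T cells asks. The first principal component (62.8% of variance) parted resting from stimulated arrays. On the second component replicate 3 of resting Gli2A Tg lay farthest out (55.45), on the side opposite to the resting Gli2R Tg arrays (-34.57 to -24.62). On the third, stimulated Gli2A Tg replicate 2 lay farthest out (51.05), and the next farthest was stimulated WT replicate 3 at -23.82. Stimulated Gli2A Tg replicate 2 also had a 3' to 5' beta-actin ratio of 3, where the next array had 1.82. Ptch1, a textbook Gli target, had mean levels of 10.37 for WT, 13.49 for Gli2A Tg and 10.40 for Gli2R Tg at rest.

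The first comparison asked how the genes differ between resting and stimulated cells. Nearly all of them fell in each genotype. The 41 were chosen with earlier results of these data known, so the counts called are no independent support. In WT cells 38 of 41 were lower at an adjusted p under 0.05 (limma, Benjamini-Hochberg over all genes), where 22% of all genes were called lower. In Gli2A Tg cells 39 were lower (background 22.8%) and in Gli2R Tg cells 38 (background 22.5%). None was called higher in any genotype, against 19.7%, 20.2% and 19.8% of all genes, and the difference was below 0 for 41, 41 and 40 of them. The median log2 difference over the 41 was -4.90 for WT, -4.66 for Gli2A Tg and -4.60 for Gli2R Tg, while that of all genes was 0.00 in WT and 0.01 in both others.

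**Figure D1:**
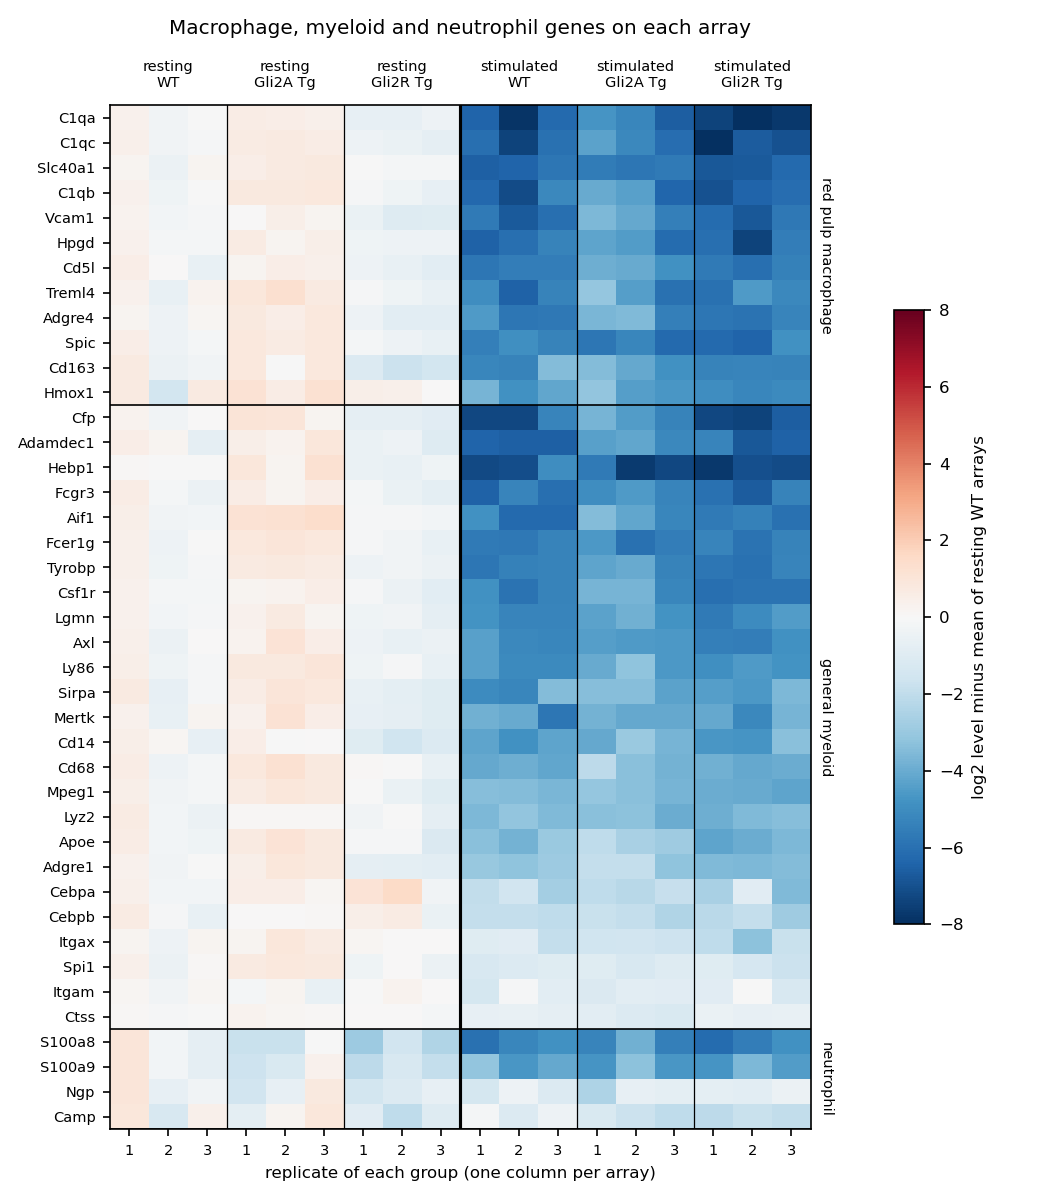
Heat map of the log2 level of each of 41 genes (rows, by list) on each of 18 arrays (columns, by group and replicate) minus the mean of the 3 resting WT arrays. The stimulated columns are blue for most red pulp and general myeloid genes, and pale for Itgam, Ctss, Ngp and Camp.

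All 12 red pulp macrophage genes fell in all 3 genotypes, with a median difference of -5.78 in WT, -5.43 in Gli2A Tg cells and -5.41 with Gli2R Tg. The 3 values of stimulated arrays lay below the 3 of resting arrays for each of the 12 in each genotype. The same separation held for 27% (WT), 26.3% (Gli2A Tg) and 27.2% (Gli2R Tg) of all genes. Among the complement genes, C1qa codes for a chain of C1q, which tags debris and dying cells for uptake. Its level was 14.00, 13.37 and 13.65 in resting WT arrays and 7.25, 5.80 and 7.48 in stimulated ones. In deposited units these were intensities of 10041 to 15089 and 36.7 to 141. Its difference was -6.83 ± 0.46 (SE; 114-fold; limma adjusted p = 2.2e-08), far beyond the spread within either group. C1qc (-6.46 ± 0.51) and C1qb (-6.19 ± 0.52), the other chains, fell with it.

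Slc40a1 (ferroportin) exports iron from macrophages that have digested red cells. It stood at 14.15, 13.46 and 14.12 in resting WT arrays and at 7.40, 7.49 and 8.11 in stimulated ones. Resting Gli2A Tg arrays gave 14.44, 14.65 and 14.66 and stimulated ones 8.31, 8.12 and 8.25. Resting Gli2R Tg arrays gave 13.90, 13.75 and 13.75 and stimulated ones 7.14, 7.18 and 7.67. Resting and stimulated arrays were thus over 5 log2 units apart in every genotype. The difference was -6.24 ± 0.22 in WT (75.7-fold), -6.35 ± 0.22 with Gli2A Tg and -6.47 ± 0.22 with Gli2R Tg (limma adjusted p = 9.7e-11, 9.39e-11 and 9.69e-11), with the smallest standard error of the 12.

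The other red pulp genes fell in WT cells too. The log2 differences were -6.13 for Vcam1, an adhesion molecule of these macrophages, -5.95 for Hpgd, which degrades prostaglandins, and -5.61 for Cd5l, a secreted scavenger-type protein. They were -5.59 for Treml4, a receptor of the TREM family, -5.36 for Adgre4 and -5.25 for Spic, the transcription factor of the red pulp macrophage. The scavenger receptor Cd163, which takes up hemoglobin with haptoglobin, fell by 4.68 on the log2 scale. Hmox1, the heme-degrading enzyme, fell least of the 12 in WT, with -4.26. Its resting WT values were 12.89, 10.65 and 12.88, so replicate 2 lay more than 2 units below the others.

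**Figure D2:**
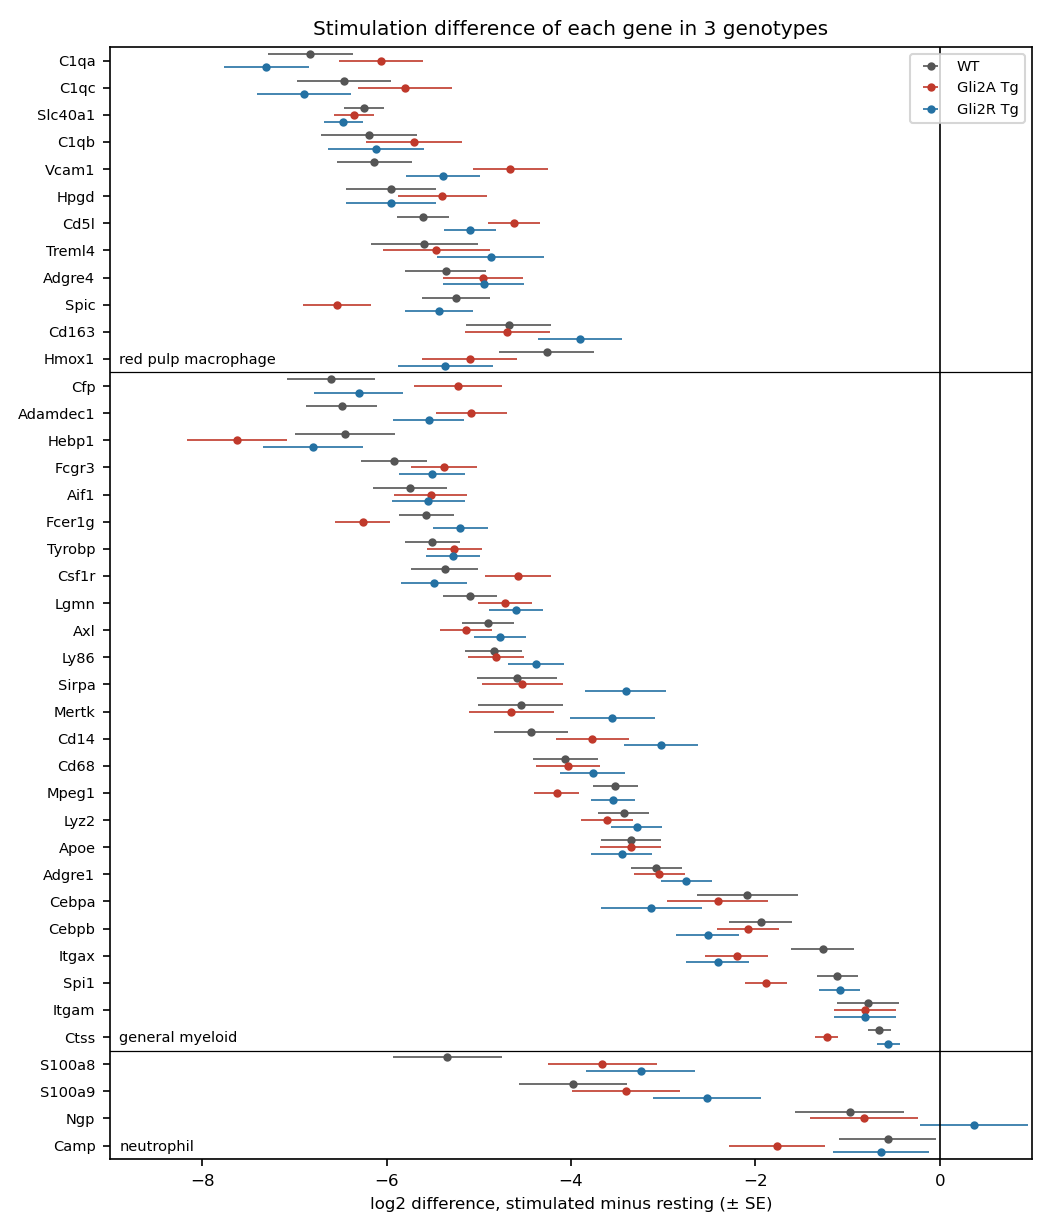
Log2 difference of stimulated minus resting cells for each gene (points, 3 arrays against 3) in WT, Gli2A Tg and Gli2R Tg cells. Bars are the standard error of the limma fit, whose spread is estimated from all 18 arrays. Red pulp macrophage genes lie between -7.30 and -3.90, while Itgam, Ctss and Ngp lie between -1.22 and 0.37.

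General myeloid genes covered a wider range. All 25 lay below 0 in each genotype, and 24 were called lower. The median was -4.54 in WT, -4.53 in Gli2A Tg cells and -3.55 with Gli2R Tg. The largest differences in WT were in Cfp (properdin, a stabiliser of the alternative complement pathway, -6.60 ± 0.48), Adamdec1, a secreted metalloprotease (-6.49 ± 0.39), and the heme-binding protein Hebp1 (-6.45 ± 0.54). These were already known as large falls in these data. Adamdec1 came near the bottom of the scale, at 4.77, 4.66 and 4.62 in stimulated WT arrays against 11.68, 11.38 and 10.44 at rest. In stimulated WT arrays Cfp was at 4.83, 4.80 and 6.83 and Hebp1 at 4.75, 4.90 and 7.01.

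Surface receptors and their adaptors fell. Csf1r, the receptor that macrophages need for survival, was at 14.36, 13.87 and 13.84 in resting WT arrays and at 9.20, 8.09 and 8.68 in stimulated ones, a difference of -5.37 ± 0.36 (limma adjusted p = 2.2e-08). The Fc receptor Fcgr3 (-5.92), the signalling chain Fcer1g (-5.57) and the adaptor Tyrobp, also called DAP12 (-5.50), fell likewise. Receptors for dying cells, Axl (-4.90) and Mertk (-4.54), the inhibitory receptor Sirpa (-4.59), the endotoxin co-receptor Cd14 (-4.43) and Ly86, a partner of the receptor RP105 (-4.84), fell as well. Adgre1, which codes for the F4/80 antigen, fell by 3.07 on the log2 scale and stood at 8.33, 8.15 and 8.48 after stimulation.

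Aif1 and the lysosomal and secreted products fell over a broad range. In WT cells the log2 difference was -5.74 for Aif1, an actin-binding protein, -5.09 for the protease Lgmn and -4.06 for Cd68, a lysosomal membrane protein. It was -3.52 for the pore-forming protein Mpeg1, -3.43 for lysozyme (Lyz2) and -3.35 for the lipid carrier Apoe. Ctss was the exception among the proteases. Its level was 14.12, 13.96 and 13.98 in resting WT arrays and 13.37, 13.42 and 13.30 in stimulated ones, a difference of -0.66 ± 0.12 (limma adjusted p = 0.000456), which does not pass with median centring (-0.28, adjusted p = 0.198).

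The general myeloid transcription factors fell less than most of the other genes. Cebpa (-2.09 ± 0.55), Cebpb (-1.94 ± 0.34) and Spi1 (-1.11 ± 0.22) passed the test in WT cells, as they did in both transgenic lines. Spi1 was at 8.75, 7.91 and 8.43 in resting WT arrays and at 7.08, 7.28 and 7.39 in stimulated ones. Itgax (CD11c, an integrin chain also found on dendritic cells) fell by 1.27 on the log2 scale. Itgam (CD11b) was the single general myeloid gene not called in any genotype. Its mean was 5.63 ± 0.26 (SD, n = 3) in resting WT arrays, close to the 25th percentile of all genes, 5.37, and its WT difference was -0.78 ± 0.34 (limma adjusted p = 0.0778).

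Of the 4 neutrophil genes, S100a8 and S100a9, the subunits of calprotectin, fell in all 3 genotypes. S100a8 was at 11.51, 10.32 and 9.81 in resting WT arrays and at 4.59, 5.35 and 5.68 in stimulated ones, a difference of -5.34 ± 0.59 (limma adjusted p = 2.88e-06), and S100a9 gave -3.98 ± 0.58. Ngp, a granule protein of immature neutrophils, was not called in any genotype, with -0.98 in WT, -0.82 in Gli2A Tg cells and 0.37 with Gli2R Tg. Camp, the cathelicidin precursor, was called in Gli2A Tg cells (-1.77 ± 0.52, adjusted p = 0.0121), with -0.57 in WT and -0.64 in Gli2R Tg cells. Without resting Gli2A Tg replicate 3 the Camp value was -1.37 and its adjusted p 0.066. The list's median was -2.48 for WT, -2.58 for Gli2A Tg and -1.58 for Gli2R Tg.

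Some differences are limited by the lower end of the scale. The mean of 8 genes in stimulated WT, 4 in stimulated Gli2A Tg and 10 in stimulated Gli2R Tg cells lay below 5.37, and that of 0 genes at rest. There the size of a fold depends on the 16 added before the logarithm. Of the genes, 11 had 15 further probe sets, and 14 of the 15 gave lower values after stimulation in each genotype. The exception was the other probe set of Cfp, with 0.98 in WT, 1.35 in Gli2A Tg cells and 0.90 with Gli2R Tg. The weaker set of Axl gave -0.17 in WT from a resting mean of 4.95.

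Further genes of the same cells, outside the 41, were read for comparison in WT. Of 12 other spleen macrophage genes 8 were lower and 0 higher, with a median of -2.0; these included the lectins Fcna (-5.22) and Mrc1 (-4.93) and the metal transporter Slc11a1 (-4.03). Of 16 other myeloid genes 12 were lower (median -1.52), among them the Fc receptors Fcgr1 (-3.90) and Fcgr4 (-3.70). Of 11 other neutrophil genes 8 were lower (median -1.92), led by the granule enzymes Prtn3 (-4.23), Mpo (-4.12), Ctsg (-3.47) and Elane (-3.16). Markers of other lineages are read against the same 22% of all genes called lower. Erythroid genes were lower in 6 of 7 (median -3.15), dendritic genes in 5 of 7 (median -1.21) and T cell genes in 5 of 8 (median -0.86, with Cd3e at -2.73 and Cd4 at -1.30). Basophil and eosinophil genes were lower in 2 of 5 (median -0.75), NK and CD8 T cell genes in 2 of 4 with Cd8a higher (2.05), platelet genes in 1 of 4 (median -0.92) and B cell genes in 1 of 7 (median -0.11). Their part in the macrophage result was not tested.

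The next question was whether the stimulation difference depended on the transgene. No gene of the 41 passed limma's test of a difference in stimulation effect between genotypes, in any of 3 pairs, where 0.011%, 0% and 0.11% of all genes did. At an unadjusted p under 0.05 there were 6 for Gli2A Tg minus WT, 3 for Gli2R Tg minus WT and 3 for Gli2A Tg minus Gli2R Tg, against 10.1%, 8.65% and 10.6% of all genes, so these counts are near or below the background. The 95% interval of the difference for Slc40a1 was -0.76 to 0.54 for Gli2A Tg minus WT, and that for C1qa was wider, -0.62 to 2.15. The smallest p-value was that of Ctss in Gli2A Tg minus Gli2R Tg (-0.67 ± 0.17, adjusted p = 0.176), with an interval of -1.04 to -0.29. Ctss differences by genotype were -0.66 in WT, -1.22 in Gli2A Tg cells and -0.56 with Gli2R Tg.

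At rest, the genes were compared between genotypes. Gli2A Tg arrays had the highest levels for many of them and Gli2R Tg arrays the lowest. Group means ran in the order Gli2A Tg, WT, Gli2R Tg for 33 of 41 genes, as for 20.2% of all genes, and for 11 of the 12 red pulp genes, with Hmox1 the exception. All 3 resting Gli2A Tg arrays lay above the other 6 resting arrays for 20 genes (4.16% of all genes), of which 7 were red pulp, 13 general myeloid and 0 neutrophil genes. All 3 resting Gli2R Tg arrays lay below the other 6 for 12 genes (4% of all genes). These counts describe genes that vary together and are not independent of each other.

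**Figure D3:**
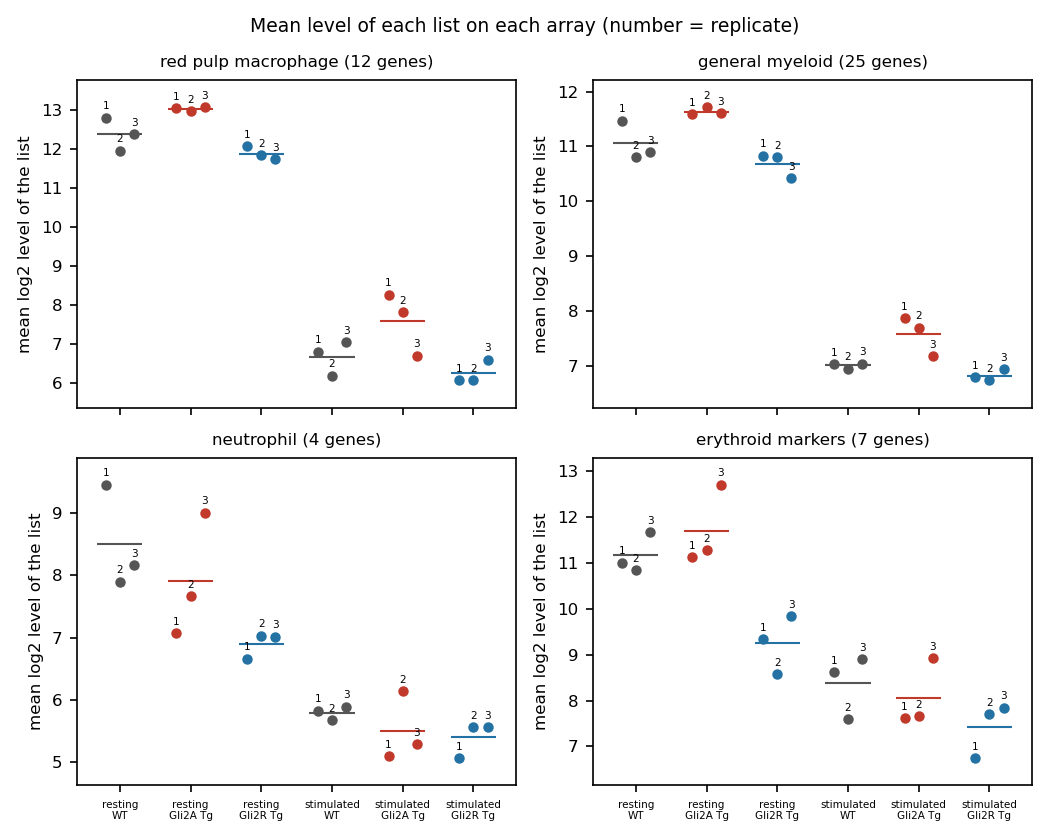
Mean log2 level over the genes of 4 lists on each array (points, numbered by replicate) with the group mean (line), in 6 groups; each panel has its own scale. In resting arrays the red pulp list runs from 12.98 to 13.08 in Gli2A Tg and from 11.75 to 12.08 in Gli2R Tg cells, and the erythroid list from 11.12 to 12.70 and from 8.57 to 9.84.

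Between resting Gli2A Tg and Gli2R Tg cells, 6 of 41 genes were higher in Gli2A Tg and 0 lower (limma, adjusted p under 0.05), where 1.56% of all genes were called higher and 0.83% lower. The median difference over the 41 was 1.12, and 38 lay above 0. In 35 the 3 Gli2A Tg values were all above the 3 Gli2R Tg values, as in 11% of all genes, and these comprised 12 of 12 red pulp, 22 of 25 general myeloid and 1 of 4 neutrophil genes. Adgre1 was at 11.86, 12.27 and 12.16 in Gli2A Tg arrays and at 10.66, 10.62 and 10.56 in Gli2R Tg arrays, with WT between them at 11.71, 11.12 and 11.36. Its difference was 1.48 ± 0.28 (adjusted p = 0.0112). Cd163 was at 10.38, 9.55 and 10.41 in Gli2A Tg and at 8.47, 7.85 and 8.10 in Gli2R Tg arrays, a difference of 1.97 ± 0.46 (adjusted p = 0.0368) and the largest of the 41.

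The other called genes were Mpeg1, Spi1, Fcer1g and Apoe. Mpeg1 was at 13.14, 13.37 and 13.28 in Gli2A Tg and at 12.47, 11.94 and 11.50 in Gli2R Tg arrays (difference 1.30 ± 0.24, limma adjusted p = 0.0115). Spi1 was at 9.09, 9.23 and 9.13 in Gli2A Tg and at 8.03, 8.40 and 7.89 in Gli2R Tg arrays (1.04 ± 0.22, adjusted p = 0.0246). Fcer1g gave 1.20 ± 0.30 (adjusted p = 0.049) and Apoe 1.32 ± 0.33 (adjusted p = 0.0493). In each of the 6 genes, picked by this same contrast, the values of both genotypes were apart without overlap, as in 11% of all genes. WT replicate 1 was the highest WT array in each, as for all 41 members and for 32.3% of all genes.

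**Figure D4:**
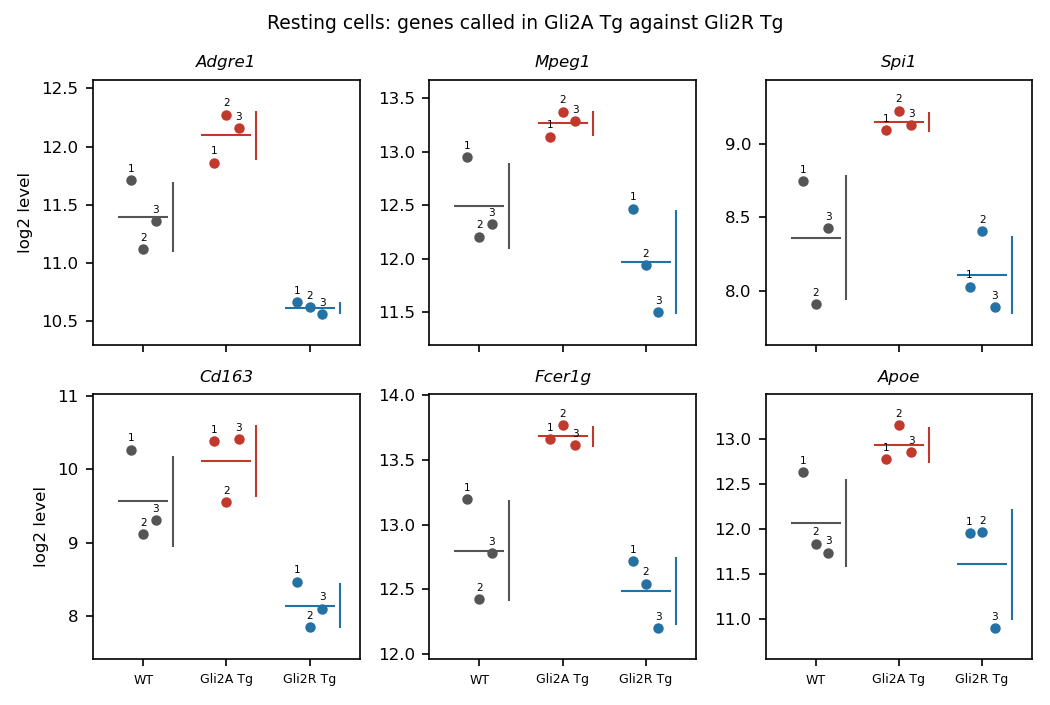
Log2 level of the 6 genes called between resting Gli2A Tg and Gli2R Tg cells on each array (points, numbered by replicate), with the group mean (horizontal line) and SD (vertical line, n = 3) for 3 genotypes. Gli2A Tg points lie above all Gli2R Tg points in every panel, for Adgre1 from 11.86 upward against 10.66 at most.

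These 6 calls rest on few arrays. Leaving out resting Gli2A Tg replicate 3, which stands apart, left 1 gene called, Mpeg1. Leaving out it and stimulated Gli2A Tg replicate 2 together also left 1, Adgre1. Without resting Gli2R Tg replicate 1, 2 or 3 there were 2 each, and without resting Gli2A Tg replicate 2 or stimulated Gli2R Tg replicate 1 or 2 there were 3 each. The genes with no call had values on the same side, among them Slc40a1 at 0.78 (adjusted p = 0.0707), Spic at 1.21 (0.0982), Sirpa at 1.59 (0.0699) and Csf1r at 0.81 (0.269) in the limma fit. Cebpa (-0.39), Itgam (-0.24) and Cebpb (-0.13) were the 3 below 0.

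Erythroid genes differed in the same contrast. Of 7 erythroid genes 3 were higher in resting Gli2A Tg than in Gli2R Tg cells, Alas2, the first enzyme of heme synthesis in red cell precursors, by 4.18, the anion exchanger Slc4a1 by 3.81 and Trim10 by 2.68, and 7 lay above 0. The erythroid list mean was 11.12, 11.27 and 12.70 in Gli2A Tg and 9.34, 8.57 and 9.84 in Gli2R Tg arrays, so the arrays were apart also without Gli2A Tg replicate 3. Its summed intensity ran from 22304 to 62682 in Gli2A Tg and from 3677 to 8315 in Gli2R Tg cells. Of 8 T cell genes 1 was called, Cd5 (-0.85), and the T cell list mean was 13.23, 13.20 and 12.70 against 13.41, 13.42 and 13.33. None of the other marker lists had a called gene in the limma fit, with 7 of 7 dendritic (median 0.49), 4 of 4 platelet (0.91), 4 of 5 basophil and eosinophil (0.75), 4 of 7 B cell (0.10) and 1 of 4 NK and CD8 T cell values (-0.15) above 0. Their part in the macrophage difference was not tested. From the further lists of 12 spleen macrophage and 16 myeloid genes, Timd4 (1.37), Mrc1 (1.63), Slc11a1 (1.19), Csf2rb (1.49) and Ncf1 (1.29) were called higher. Of all genes 1.56% were called higher.

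Against WT, limma called none of the 41 genes in resting Gli2A Tg cells, where 0.55% of all genes were called in either direction. At an unadjusted p under 0.05 there were 12 of 41, as for 10.1% of all genes, and 37 values lay above 0 with a median of 0.61. The smallest p-value belonged to Spi1, with 0.79 ± 0.22 (adjusted p = 0.171). In resting Gli2R Tg cells limma called 0 of the 41 and 0% of all genes, with 8 of 41 at an unadjusted p under 0.05 (10.3% of all genes), 36 values below 0 and a median of -0.46. Both comparisons share the WT arrays. WT replicate 1 was the highest WT array for 41 of 41 genes (32.3% of all genes), and replicate 2 the lowest for 30 (34.9%).

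At rest, 3 of the 4 neutrophil genes, S100a8, S100a9 and Ngp, had their highest mean in WT and their lowest in Gli2R Tg cells, while Camp had its highest in Gli2A Tg cells. S100a8 was at 11.51, 10.32 and 9.81 in WT, at 8.78, 8.80 and 10.49 in Gli2A Tg and at 7.65, 9.03 and 8.13 in Gli2R Tg arrays, so 1 of the Gli2A Tg arrays overlapped WT. The difference of Gli2R Tg from WT was -2.28 ± 0.59 (95% interval -3.54 to -1.02), the smallest p-value of the 41 in that contrast, with an adjusted p of 0.209 in the limma fit. S100a9 gave -1.74 ± 0.58 there. Resting Gli2A Tg replicate 3 was the highest of its group for 4 of 4 neutrophil genes, 5 of 12 red pulp and 6 of 25 general myeloid genes, where it was so for 38.6% of all genes.

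After stimulation, the lower levels of the macrophage genes also differed between arrays. Stimulated Gli2A Tg replicates 1 and 2 were the 2 highest of the 9 stimulated arrays for 22 of 41 genes (5.85% of all genes), of which 8 were red pulp, 14 general myeloid and 0 neutrophil genes. Replicate 3 was the lowest of its group for 31 genes (34.7% of all genes). Vcam1 shows the order, at 10.09, 9.61 and 8.22 in Gli2A Tg, 8.05, 7.01 and 7.67 in WT and 7.53, 6.92 and 7.98 in Gli2R Tg arrays.

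**Figure D5:**
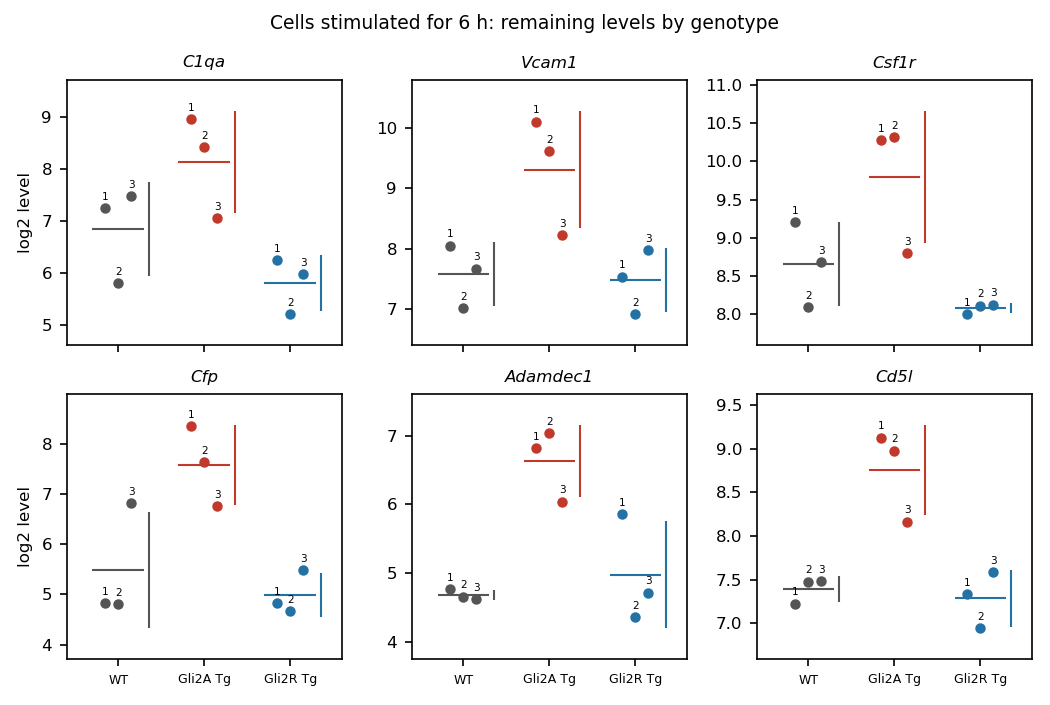
Log2 level of 6 genes on each array of cells stimulated for 6 h (points, numbered by replicate), with the group mean (horizontal line) and SD (vertical line, n = 3). Gli2A Tg replicate 3 is the lowest of its group in each panel, for C1qa at 7.05 against 8.96 and 8.42. The 6 genes were chosen after their values were seen.

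Between stimulated Gli2A Tg and Gli2R Tg cells limma called 1 gene higher, Cfp, where 0.198% of all genes were called higher, and 0 lower, where 0.033% were. Cfp was at 8.36, 7.64 and 6.77 in Gli2A Tg and at 4.82, 4.67 and 5.48 in Gli2R Tg arrays. The difference was 2.60 ± 0.48 (limma adjusted p = 0.0434) and ran from 1.61 to 3.46 under alternative processing. Cfp had a Gli2R Tg mean of 4.99, below the 25th percentile of all genes, 5.37. Its WT values, 4.83, 4.80 and 6.83, overlapped both. The other Cfp probe set had means of 7.88 and 7.20 in the transgenic groups. The median over the 41 was 0.75, 38 lay above 0 and 24 had an unadjusted p under 0.05 (9.17% of all genes). Cd5l (1.47) and C1qa (2.33) had an adjusted p of 0.0522.

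This call also depended on single arrays. With 1 array left out at a time, no gene of the 41 was called for 10 of the 18 arrays. These were resting WT replicate 2, resting Gli2A Tg replicates 1 and 2 and all resting Gli2R Tg replicates. Among stimulated arrays they were Gli2A Tg replicates 1 and 2 and Gli2R Tg replicates 2 and 3. Without stimulated Gli2A Tg replicate 3 there were 11 genes, and without stimulated WT replicate 2 or 3 there were 2. Without both arrays that stand apart there were 0. In the same contrast limma called 0 of 7 erythroid genes, whose list mean was 7.62, 7.66 and 8.92 in Gli2A Tg and 6.75, 7.70 and 7.85 in Gli2R Tg arrays. The part of the high actin ratio of Gli2A Tg replicate 2 in these values was not tested.

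Against WT, 0 genes were called in stimulated Gli2A Tg cells (limma; 0.132% of all genes in either direction), with 19 of 41 at an unadjusted p under 0.05 (11.5% of all genes) and a median of 0.73. The smallest limma p-values were those of Adamdec1 (1.95 ± 0.39, adjusted p = 0.0646) and Cd5l (1.36 ± 0.28, adjusted p = 0.0764). The stimulated WT mean of Adamdec1, 4.68, lay below the 25th percentile of all genes, 5.37. Its difference ran from 1.01 to 2.98 under alternative processing. Without stimulated Gli2A Tg replicate 3 there were 5 calls, and 1 without stimulated WT replicate 3 or stimulated Gli2R Tg replicate 1. In stimulated Gli2R Tg cells 0 were called (limma; 0.044% of all genes), 4 of 41 had an unadjusted p under 0.05, near the 9.22% of all genes, and the median was -0.26.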

How the data were processed

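The authors deposited linear intensity values for 45101 probe sets on each of 18 arrays, made with the affy package per the submitters' processing notes (version and summary method not given in the sources used here). The 2% trimmed mean of each array is the same. Of the probe sets 34945 had 1 gene symbol, 932 several, 9160 none and 64 were controls; those with 1 symbol gave 18193 genes. From these, log2 of the intensity plus 16 was computed and quantile normalized. Group means of all 18 arrays were fitted with limma 3.58.1 in R 4.3.3 (lmFit, eBayes), 12 comparisons were taken, with Benjamini-Hochberg adjustment over all genes of each and a call at an adjusted p under 0.05. Errors of differences are standard errors. The fit was tested on simulated data. The members and lists were chosen with earlier results of these data known, and some members are among the largest falls seen before, so their number called is no independent support. Genes were named by role, by call, and otherwise by the smallest p-values of a comparison. Alternatives were other scalings, added constants, gene filters, probe set rules, fit options, the replicate number as a block, and leaving out arrays. Leaving out both arrays that stand apart was added after seeing the data.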

Additional observations from a re-analysis of the deposited data

How the results depend on the processing

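For 153 values of a gene in a comparison, each tried under 29 alternatives (28 for Cd163, Itgam, S100a9 and Camp, which are not among genes above the median level), 0 changed direction from a called value, and 132 kept their side of the threshold throughout. Stimulation calls ranged from 36 to 39 in WT. The filter for genes above the median level leaves out those named genes, so counts under it are not out of 41. Same-numbered arrays deviated together with correlations of -0.0578 to 0.104, over 0.1 in 2 of 45 pairs. Arrays with other numbers gave -0.108 to 0.0517. The erythroid list mean was highest in replicate 3 of each of the 6 groups. Whether a replicate number stands for a shared preparation was not tested. With the replicate block 38, 40 and 39 genes were lower after stimulation in WT, Gli2A Tg and Gli2R Tg cells and 6 were higher in resting Gli2A Tg against Gli2R Tg cells. Median centring moved the median of all genes by 0.13 in WT and 0.11 in Gli2A Tg stimulation.

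Calls between genotypes were less stable. For resting Gli2A Tg against Gli2R Tg, 3 were higher with 1 added, 24 with 64 added, 19 among genes above the median level, 16 with trend and robust options, 3 with the compared groups alone, 1 without both arrays that stand apart and 1 to 8 with each array left out. For stimulated Gli2A Tg against Gli2R Tg these were 0, 6, 10, 8, 0, 0 and 0 to 11, with 2 under median centring, 7 with array weights and 1 lower with trend and robust options. Of the genes called at rest, Adgre1 kept its call in 28, Mpeg1 in 26, Spi1 in 23, Fcer1g in 9 and Apoe in 5 of 29 alternatives, and Cd163 in 17 of 28. Cfp, the gene called between stimulated Gli2A Tg and Gli2R Tg cells, kept its call in 11 of 29. Against WT, 1 was higher in resting Gli2A Tg with 64 added. In stimulated Gli2A Tg 4 were higher above the median level, 2 with trend and robust options and 0 to 5 with each array left out. For the stimulation effect of Gli2A Tg minus Gli2R Tg, 1 gene, Ctss, was lower both among genes above the median level and with trend and robust options.

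Medians of lists moved with the added constant: with 1 added, -6.12 for red pulp in Gli2R Tg, -5.02 for general myeloid in WT and -2.61 for neutrophil genes in Gli2R Tg; with 64, -4.99, -3.68 and -0.82, and -3.98 for general myeloid in Gli2A Tg. With the mean of probe sets general myeloid genes gave -3.52 in WT and -3.77 in Gli2A Tg. With each array left out the red pulp median ran from -5.95 to -4.80 in Gli2A Tg and from -5.78 to -5.26 in Gli2R Tg. In Gli2A Tg that of general myeloid genes ran from -4.67 to -4.07 and that of neutrophil genes from -3.02 to -2.09. The cause of these changes was not tested.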
